A study of Mus musculus with 2 samples.

Results

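A set of 8 genes of red blood cells was followed in cultured ureters of the mouse embryo: the embryonic globins *Hba-x*, *Hbb-bh1* and *Hbb-y*, the adult-type globins *Hba-a1*, *Hbb-b1* and *Hbb-bt*, the gene of the first enzyme of haem synthesis in red cells (*Alas2*) and the gene of the band 3 anion exchanger of the red cell membrane (*Slc4a1*). The probes were taken by gene name, and the genes were chosen with earlier results of these data known. They are 8 of the 29924 gene names on the array and were measured by 9 probes, of which *Hbb-y* has a pair. Ureters were dissected from wild-type embryos of the outbred strain NMRI at E11.5 and cultured on a membrane for 18 h in serum-free medium. Treated pools received 10 µM IWP-2, an inhibitor of PORCN, the enzyme that acylates WNT proteins before their release, and control pools received the solvent DMSO (2 parts in 1000). There were 2 treated and 2 control pools, the sex of the embryos was not determined, and each array carried 1 treated and 1 control pool in different dyes, with the dyes swapped between replicate 1 and replicate 2. Each pool held many ureters, so no value belongs to a single embryo. The explants had no circulation.

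Haemoglobin is a tetramer of α-like and β-like globin chains that carry haem. In the mouse, the first red cells arise in the yolk sac and use mainly ζ (*Hba-x*), βh1 (*Hbb-bh1*) and εy (*Hbb-y*), together with adult α-globin. The red cells that later leave the fetal liver use α- and adult-type β-globins. Around the stage of dissection most circulating red cells are still of yolk sac origin, and these cells keep their nuclei and much globin RNA.

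Of the probes, 3 lie within coding sequence, and they are shown because they distinguish an embryonic and an adult-type α-like chain and an embryonic β-like chain. Each is 60 bases long and read 5′ to 3′ on the strand of the mRNA, with positions on build mm9. The *Hba-x* probe is at chr11:32177668-32177727, the *Hba-a1* probe at chr11:32183955-32184014 and the coding probe of *Hbb-y* at chr7:111000448-111000507 on the minus strand.
Hba-x: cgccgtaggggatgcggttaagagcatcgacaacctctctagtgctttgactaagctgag
Hba-a1: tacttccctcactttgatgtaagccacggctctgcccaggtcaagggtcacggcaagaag
Hbb-y: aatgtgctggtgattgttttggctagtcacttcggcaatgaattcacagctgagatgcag

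Not every globin probe is specific for 1 gene. The array's own annotation assigns the *Hba-a1* probe to transcripts of 2 genes, *Hba-a1* and its near copy *Hba-a2*. The *Hbb-b1* probe is assigned to *Hbb-b1* and *Hbb-bs*, whereas the probes of *Hba-x*, *Hbb-bh1*, *Hbb-y*, *Hbb-bt*, *Alas2* and *Slc4a1* are each assigned to 1 gene. *Hbb-b1* and *Hbb-b2* on the one hand and *Hbb-bs* and *Hbb-bt* on the other belong to different haplotypes of the β-globin locus in laboratory mice, and the haplotypes of these embryos are not given in the sources used here. Values of *Hba-a1*, *Hbb-b1* and *Hbb-bt* are therefore uncertain as to the gene copy they stem from.

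The globin promoters are shown because elements known from erythroid genes were searched in them. Of the letters searched, only CACCC was found in all 4 globin promoters at hand. The 130 bases before the start are given from RefSeq (build GRCm38.p6), which held promoters of 5 of the 8 members. Capitals mark the letters AGATAA (a form of the core bound by GATA factors), CACCC (bound by KLF1) and CCAAT (bound by NF-Y). They also mark TATAA, the letters of the TATA box, and CTTTGA, the core bound by TCF and LEF factors. All were searched on both strands. Where CCAAT and its reverse abut, as in *Hbb-bt*, the capitals run together. The stretches are chr11:32276470-32276599 for *Hba-x*, chr11:32283542-32283671 for *Hba-a1* (both plus strand), chr7:103853208-103853337 for *Hbb-y* and chr7:103813924-103814053 for *Hbb-bt* (both minus strand).
Hba-x: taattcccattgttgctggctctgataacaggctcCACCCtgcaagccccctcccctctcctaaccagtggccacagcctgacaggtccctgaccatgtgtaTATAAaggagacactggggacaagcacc
Hba-a1: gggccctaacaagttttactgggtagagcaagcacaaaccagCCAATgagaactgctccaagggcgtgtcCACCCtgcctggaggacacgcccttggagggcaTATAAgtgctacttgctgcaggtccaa
Hbb-y: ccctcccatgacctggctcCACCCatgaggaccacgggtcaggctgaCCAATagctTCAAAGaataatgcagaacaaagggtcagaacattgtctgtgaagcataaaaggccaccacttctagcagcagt
Hbb-bt: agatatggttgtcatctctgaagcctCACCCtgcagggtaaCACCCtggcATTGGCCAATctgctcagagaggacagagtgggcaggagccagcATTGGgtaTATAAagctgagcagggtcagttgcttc

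In the 250 bases before the start, CACCC was found in 4 of these 4 promoters, CCAAT in 3 and TATAA in 3. Over all 32851 mouse promoters of the table, CACCC was found in 52.0%, CCAAT in 33.8% and TATAA in 22.8%. In 3 of the globin promoters TATAA began 27 or 28 bases before the start, and *Hbb-y* has the letters cataaaa near that place instead. AGATAA was found in the promoter of *Alas2* alone, 86 bases before the start and on the reverse strand, compared with 9.99% of all promoters. Other forms of the GATA core, such as TGATAA, were not searched, and the *Hba-x* stretch shown holds those letters unmarked. CTTTGA was found in the promoter of *Hbb-y* alone, 74 bases before the start and on the reverse strand, compared with 13.8% of all promoters. These matches describe letters and not bound sites.

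All 9 probes of the members passed the filter on dim probes. None of their 72 spots was marked as saturated, and 3 were dropped as outliers. The probes differed widely in brightness: of 39429 probes, the used *Hbb-y* probe ranked 1st in mean brightness, the *Hba-a1* probe 178th, *Hba-x* 911th, *Hbb-bh1* 1250th, *Hbb-bt* 1552nd, *Hbb-b1* 5657th, *Slc4a1* 12068th and *Alas2* 12442nd. These ranks describe the probes and not the abundance of the RNAs. WNT inhibition was visible on both arrays. *Nkd1*, a target of WNT signalling, fell (log2 ratio -1.31 ± 0.20, SD, n = 2, adjusted p = 0.0058, limma). *Axin2* had a log2 ratio of -1.01 ± 0.53 and an adjusted p of 0.0502. Ureteric markers such as *Gata3* and *Foxf1* were well above background in the pools.

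The largest differences of most red cell genes lay between the replicates and not between the treatments, and they are described before the treatment is. *Hbb-bt* had normalised intensities of 151080 and 134720 in the treated and control pool of replicate 1 and of 31919 and 21366 in those of replicate 2. For *Slc4a1* the same 4 values were 7599, 8540, 1861 and 1213. For *Alas2* they were 6776, 6301, 2085 and 1160. Both pools of replicate 1 thus stood above both pools of replicate 2 for each of these genes. Between the treated pools replicate 1 was 4.73-fold higher for *Hbb-bt*, 4.08-fold for *Slc4a1* and 3.25-fold for *Alas2*. Between the control pools the difference was wider, with 6.31-fold for *Hbb-bt*, 7.04-fold for *Slc4a1* and 5.43-fold for *Alas2*. In bulk RNA, fewer red cells in a pool and less RNA per red cell cannot be told apart.

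**Figure D1:**
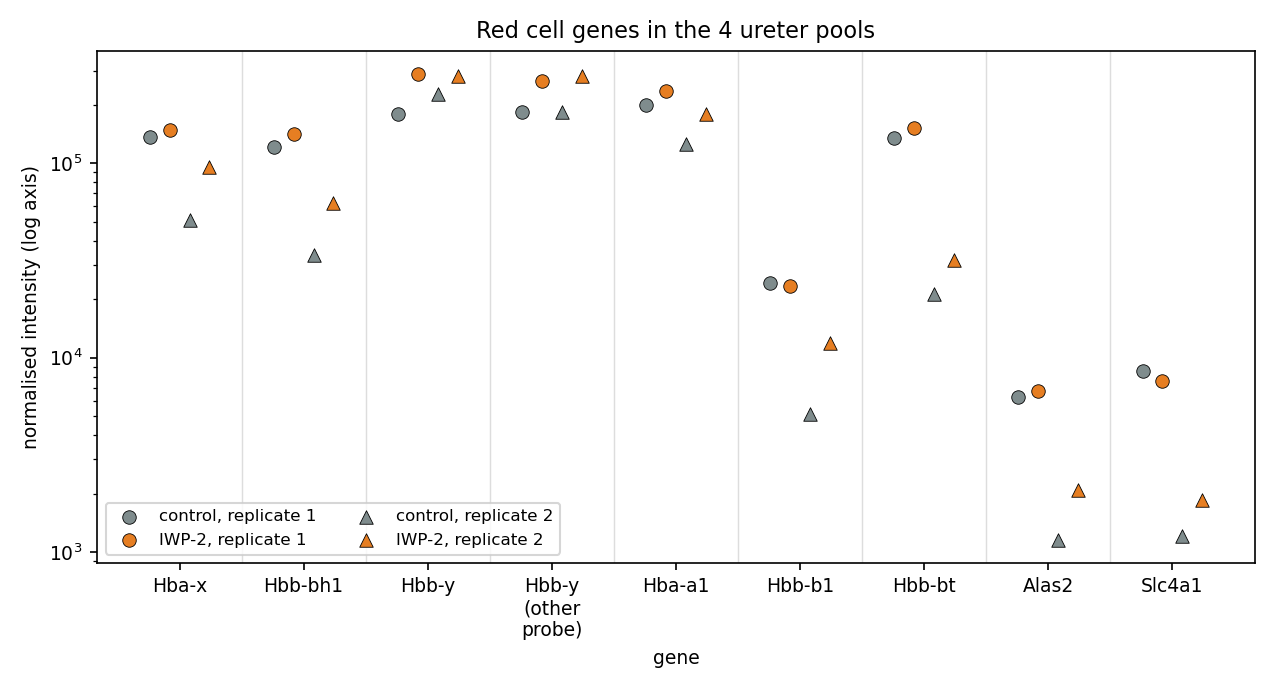
Normalised intensity (log axis) of each red cell gene in the 4 ureter pools, with 1 point for each pool, and with the pair of *Hbb-y* probes shown separately. For 7 of the 8 genes both pools of replicate 1 (circles) lie above both pools of replicate 2 (triangles), whereas for *Hbb-y* both IWP-2 pools lie above both control pools.

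*Hbb-b1*, an adult β-globin, measured 23510 (treated) and 24213 (control) in replicate 1 and 11843 and 5108 in replicate 2. *Hbb-bh1*, an embryonic β-like globin, measured 141620, 120670, 62672 and 33784 in the same order. *Hba-x*, the embryonic α-like globin, measured 148370, 137130, 96044 and 51151. In all 3 the control pool of replicate 2 was the lowest of the 4, and the drop from replicate 1 to replicate 2 was larger among control pools (4.74-fold, 3.57-fold and 2.68-fold) than among treated pools (1.99-fold, 2.26-fold and 1.54-fold). The gap was small for *Hba-a1*, the adult α-globin, with 236380, 198940, 178550 and 126310. *Hbb-y*, an embryonic β-like globin, showed none in these levels, with 287880 and 179090 in replicate 1 and 279940 and 226310 in replicate 2. Quantile normalization of brightness draws the brightest probes of both arrays toward the same brightness, which can narrow their gap. With arrays centred on median brightness instead, the treated and control gaps were 1.73-fold and 2.06-fold for *Hba-a1*. They were 1.94-fold and 3.37-fold for *Hba-x* and 1.24-fold and 0.95-fold for *Hbb-y*.

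Both replicate 1 pools were above both replicate 2 pools for 7 of 8 members, compared with 18.5% of the 20119 genes tested. The gap was at least 2-fold between all such pools for 3 of 8 members (*Hbb-bt*, *Slc4a1* and *Alas2*), compared with 0.507% of genes. Ranked by this gap among 20119 genes, *Hbb-bt* was 5th, *Slc4a1* 6th, *Alas2* 14th, *Hbb-b1* 108th, *Hbb-bh1* 116th, *Hba-x* 324th, *Hba-a1* 1186th and *Hbb-y* 19392nd. The 3 members with the brightest probes thus had the smallest gaps, and the part of probe brightness and of its normalization in this was not tested. The members' median log2 level of replicate 1 over replicate 2 was 1.08 between treated and 2.04 between control pools. Over all genes tested these medians were -0.03 and 0.02. With raw signals of the same dye the members' median was 2.26 in red and 0.90 in green. Red sets the treated pool of replicate 1 against the control pool of replicate 2. Green sets the control pool of replicate 1 against the treated pool of replicate 2. These raw signals were not centred between the arrays, so a difference in brightness between whole arrays enters both values. With 2 arrays there is no test of a difference between replicates, and dissection, culture, pool and array cannot be told apart as its origin.

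With IWP-2, all 8 members had a mean log2 ratio above 0, but none passed a false discovery rate of 0.05 in limma, where 1.76% of all genes did. At an unadjusted p of 0.05, 6 of 8 members passed, compared with 13.4% of all genes tested. The ratio was above 0 on both arrays for 6 of 8 members, compared with 28.5% of genes. The 6 are the 3 embryonic globins, *Hba-a1*, *Hbb-bt* and *Alas2*. The treated pools were both above the control pools for 1 of 8 members, *Hbb-y*, compared with 19.1% of genes. No member reached a 2-fold change on both arrays, which 0.419% of the genes with an intensity of at least 100 did.

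The arrays disagreed in the size of the difference. The median log2 ratio of the 8 members was 0.14 on replicate 1 and 0.73 on replicate 2, whereas the median over all genes tested was -0.01 and 0.02. For 7 of 8 members the ratio was larger on replicate 2. On that array the members ranged from 0.31 to 1.21, all above 0, and on replicate 1 from -0.17 to 0.68. The control pool of replicate 2 had the lowest level of the 4 pools for all members but *Hbb-y*. Its part in the ratio there, which the treated pool enters as well, was not tested. As the dyes were swapped, a dye bias of a gene would enter the 2 ratios with opposite sign. The difference between the arrays, and with it the wider replicate gap of the control pools, thus cannot be told apart from dye. Whether the effect of IWP-2 differed between the arrays could not be tested with 1 pair of pools on each.

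**Figure D2:**
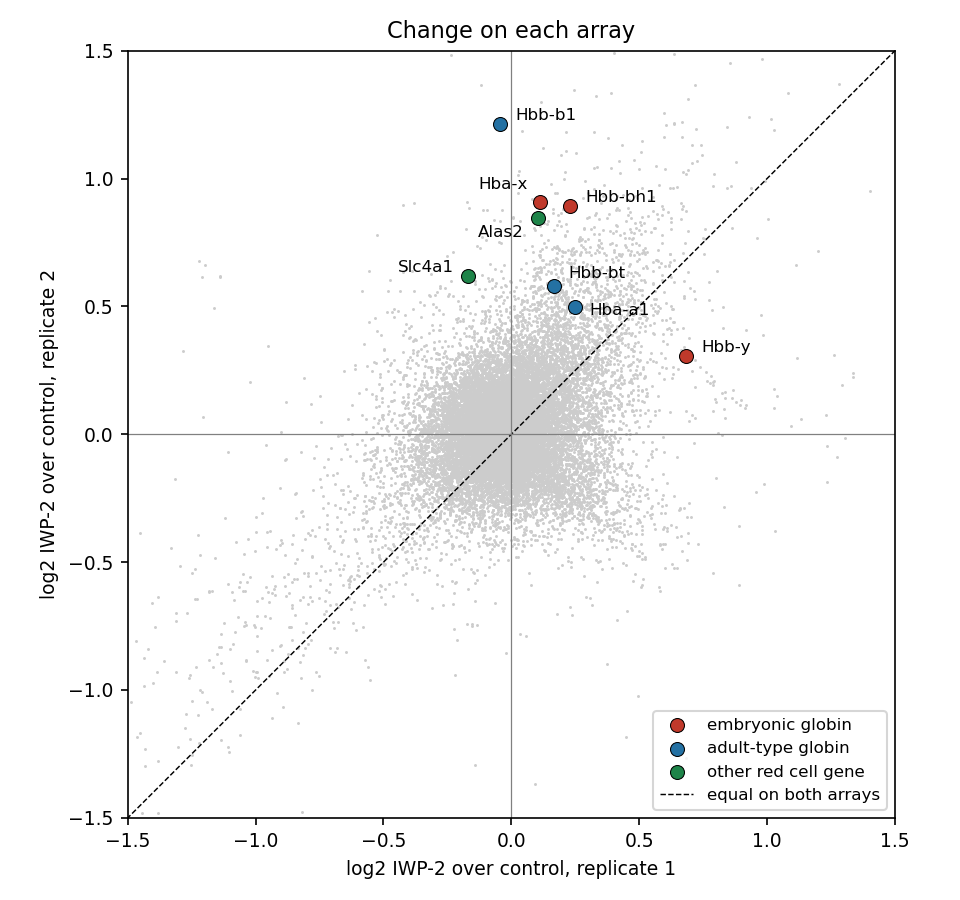
Log2 ratio of IWP-2 over control on replicate 1 (x axis) and replicate 2 (y axis) for all genes tested (grey) and the 8 red cell genes (coloured by class), with a dashed line where both arrays are equal and with a few genes beyond the axes not drawn. Of the members, 7 lie above the line, and *Hbb-y* (0.68 and 0.31) lies below it.

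Among the embryonic globins, *Hbb-bh1* had log2 ratios of 0.23 and 0.89 (0.56 ± 0.47, SD, n = 2 arrays, adjusted p = 0.186 in limma). *Hba-x* had ratios of 0.11 and 0.91 (0.51 ± 0.56, adjusted p = 0.292). *Hbb-y* had ratios of 0.68 and 0.31 (0.50 ± 0.27, adjusted p = 0.128), the smallest adjusted p of the members. Its other probe, in the coding part, read 265250 and 183010 in replicate 1 and 280220 and 183520 in replicate 2, with ratios of 0.54 and 0.61. The used probe of *Hbb-y* is thus lower on replicate 2 than on replicate 1 while the other is not, although both have treated above control on each array. With the mean of both probes in place of the brightest, *Hbb-y* rose with an adjusted p of 0.0427 in limma. Over all 20119 genes that fit called 224 higher and 278 lower, compared with 123 and 232 in the main fit.

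Among the adult-type globins, *Hbb-b1* showed the widest disagreement, with ratios of -0.04 and 1.21 (0.59 ± 0.89, adjusted p = 0.427 in limma). *Hba-a1* had 0.25 and 0.50 (0.37 ± 0.18, adjusted p = 0.191). *Hbb-bt* had 0.17 and 0.58 (0.37 ± 0.29, adjusted p = 0.263). *Hba-a2* and *Hbb-b2*, which share probe matches with members, had 0.52 and 0.46 (adjusted p = 0.073) and 0.00 and 0.85 (adjusted p = 0.422).

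Outside the globins, *Alas2* had log2 ratios of 0.10 and 0.85 (0.48 ± 0.52, adjusted p = 0.303 in limma), close to those of *Hba-x* on both arrays. *Slc4a1* had -0.17 and 0.62 (0.22 ± 0.56, adjusted p = 0.773), the lowest mean of the 8. For *Slc4a1* and *Hbb-b1* the sign thus differed between the arrays.

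Embryonic and adult-type globins were then set side by side. Over *Hba-x*, *Hbb-bh1* and *Hbb-y* the mean log2 ratio was 0.34 on replicate 1 and 0.70 on replicate 2. Over the 5 adult-type globins on the array (*Hba-a1*, *Hba-a2*, *Hbb-b1*, *Hbb-b2* and *Hbb-bt*) it was 0.18 and 0.72. Embryonic minus adult-type was 0.16 on replicate 1 and -0.02 on replicate 2 (0.07 ± 0.13, SD, n = 2), so that the sign differed between the arrays and the mean was smaller than the SD. Without *Hbb-y*, *Hba-a1* and *Hba-a2*, the brightest of these, the difference was 0.13 and 0.02. In contrast, the gap between replicates followed the division into embryonic and adult-type chains only in part. Between control pools it was 6.31-fold for *Hbb-bt* and 4.74-fold for *Hbb-b1*, with *Hbb-b2* between them. The embryonic β-like chains *Hbb-bh1* (3.57-fold) and *Hbb-y* (0.79-fold) lay below these adult-type ones. Between treated pools *Hbb-b1* (1.99-fold) lay below *Hbb-bh1* (2.26-fold). Among the α-like chains the order was reversed, with the embryonic *Hba-x* (2.68-fold between control pools) above *Hba-a1* and *Hba-a2*. The part of probe brightness in this was not tested.

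Other genes of the red cell were taken from lists, whose counts at an unadjusted p of 0.05 stand beside the same 13.4% over all genes. Of 7 further globins tested, none passed the false discovery rate of 0.05 in limma and 1 passed an unadjusted p of 0.05, and the median ratio was -0.06 on replicate 1 and 0.21 on replicate 2. This list also holds the non-erythroid globins *Mb* and *Cygb*. The minor α-like globins *Hbq1a* and *Hbq1b* had a replicate gap like that of the members, with 2.20-fold and 2.79-fold between treated pools and 2.64-fold and 4.07-fold between control pools. *Hbb-b2*, an adult β-globin, measured 43289 and 43141 in replicate 1 and 15552 and 8625 in replicate 2.

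Of 15 genes of the red cell membrane and its skeleton, none was called by limma (4 at the unadjusted p), with medians of 0.07 and 0.38. *Rhd*, a blood group antigen, had log2 ratios of 0.03 and 1.03 (adjusted p = 0.366), *Rhag*, its partner, 0.23 and 0.41 (0.236) and *Epb4.2* -0.18 and 0.80 (0.694). Both pools of replicate 1 were at least 2-fold above those of replicate 2 for *Rhd*, *Epb4.2* and *Kel*. *Kel*, another blood group antigen, was 3.44-fold higher between treated and 4.59-fold between control pools.

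Of 17 genes for iron uptake, the erythropoietin receptor and red cell enzymes and chaperones, none was called (2 at the unadjusted p), with medians of 0.07 and 0.21. *Ahsp*, the chaperone of free α-globin, had log2 ratios of 0.12 and 1.12 (adjusted p = 0.279), *Blvrb* 0.11 and 0.58 (0.341) and *Car2* 0.07 and 0.50 (0.420). In its levels *Ahsp* resembled the members, with 8577 and 7877 in replicate 1 and 3093 and 1423 in replicate 2. In contrast *Hemgn*, which was likewise named for red cells, was level, with 51044, 48731, 48037 and 53003. At least a 2-fold gap was seen for 3 of the 17, *Ahsp*, *Car2* and *Trim10*.

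Of 11 erythroid transcription factors, none was called by limma (3 at the unadjusted p), with medians of -0.13 and 0.15. *Tal1* had 0.28 and 0.67 (adjusted p = 0.146), *Gata1* 0.05 and 0.55 (0.436) and *Bcl11a*, which is also a neuronal and lymphoid factor, -0.75 and 0.05 (0.528). *Klf1* and *Gfi1b* were at least 2-fold higher in both pools of replicate 1. Of 11 genes of haem synthesis, which most cells use, none was called (0 at the unadjusted p). Their medians were 0.00 and 0.02, no gene had a 2-fold replicate gap, and the ratios of the 3 most changed were 0.14 and 0.29 for *Cpox*, -0.16 on both arrays for *Alad* and -0.20 and 0.02 for *Abcb6*. On replicate 2 these genes ranged from -0.16 to 0.29, compared with 0.85 for *Alas2*. Of 8 genes of haem breakdown and iron storage, none was called (2 at the unadjusted p, medians 0.14 and 0.31). *Hmox1*, the haem oxygenase that degrades haem, had 0.01 and 0.49 and a replicate gap of 2.00-fold and 2.79-fold. *Fth1* had 0.48 and 0.31, and *Slc40a1* 0.15 and 0.35.

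Markers of other cells that vessels and blood can bring were set beside these. Of 10 endothelial genes all 10 had ratios above 0 on both arrays (medians 0.38 and 0.54), and *Kdr* (0.59 and 0.88, adjusted p = 0.0359 in limma) and *Cldn5* (0.62 and 0.67, 0.0347) rose. All 10 passed an unadjusted p of 0.05 in limma, compared with 13.4% of all genes tested. *Cdh5* had 0.30 and 0.84 (0.137). Their summed level was 139450 and 116840 in the treated and 102690 and 74159 in the control pools. Of 12 macrophage genes all 12 were above 0 on both arrays (medians 0.32 and 0.60), and 3 rose: *Marco* (2.16 and 2.06, adjusted p = 0.000527 in limma), *Ms4a7* (1.27 and 1.83, 0.0084) and *Adgre1* (0.64 and 1.21, 0.0409). All 12 macrophage genes passed the unadjusted p of 0.05. Their summed level was 120740 and 107310 in the treated and 93060 and 70950 in the control pools. The part of either cell type in the ratios of the red cell genes was not tested.

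Unlike 3 of the 8 members, no endothelial or macrophage gene had a 2-fold replicate gap. The same held for 11 megakaryocyte and platelet genes, none of which was called by limma (0 at the unadjusted p, medians -0.23 and 0.04). Among these, *Pf4* had ratios of 0.08 and 0.38, *Gp5* -0.23 and -0.07 and *Itga2b* -0.23 and -0.10. Of 6 genes of other leukocytes none was called (2 at the unadjusted p, medians -0.12 and 0.51), with *Cpa3* at 0.42 and 0.71, *Ptprc* at 0.33 and 0.47 and *Mpo*, a dim probe, at -1.28 and 0.33. Of 6 genes of yolk sac and fetal liver none was called (1 at the unadjusted p, medians 0.01 and 0.39). *Afp* stood out in 1 pool, with intensities of 447 and 369 in replicate 1 and 1395 and 213 in replicate 2, and *Alb* (0.08 and 0.58) and *Rbp4* (-0.75 and 0.15) were dim. *Cd163*, *Spic*, *Trim58*, *Hbb-bh2*, *Sptb*, *Apoa1*, *Apoa4*, *Apob* and *Ahsg* did not pass the filter on dim probes.

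Of the ureter itself, 8 epithelial genes had medians of -0.07 and 0.28, and none was called by limma (3 at the unadjusted p). *Gata3* had 0.13 and 0.51, *Epcam* 0.25 and 0.35 and *Shh* -1.33 and -0.44 (adjusted p = 0.0994). Of 8 mesenchymal genes, 4 passed the unadjusted p in limma. *Foxf1* (-1.40 and -1.74, adjusted p = 0.00389 in limma), *Tbx18* (-1.18 and -0.88, 0.0126) and *Ptch1* (-1.13 and -0.93, 0.0108) fell. Their direction was the same on both arrays, and no gene of either list had a 2-fold replicate gap.

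**Figure D3:**
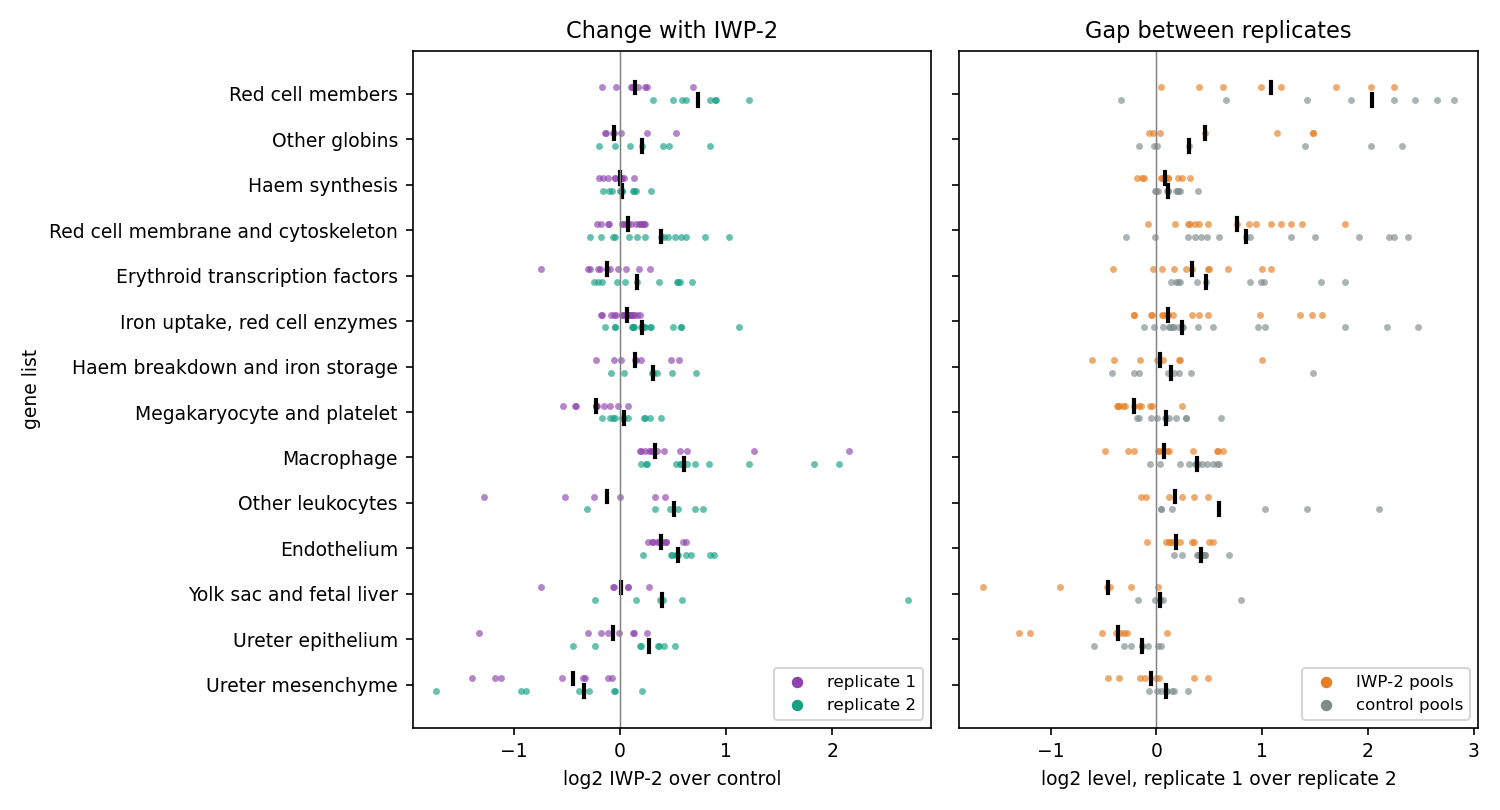
Left, log2 ratio of IWP-2 over control on each array, and right, log2 level of replicate 1 over replicate 2 in IWP-2 and in control pools, for the 8 red cell genes and each gene list, with 1 point for each gene and a black bar at the median. The red cell genes have medians of 0.14 and 0.73 on the left and of 1.08 and 2.04 on the right, and the endothelial and macrophage lists lie above 0 on the left with gaps of under 2-fold in all their genes on the right.

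The genes whose pair of log2 ratios was nearest to the members' median pair (0.14 and 0.73) over the 2 arrays were *Mall* (0.14 and 0.73), *Iqcf4* (0.12 and 0.73), the unnamed probe A_55_P2106358 (0.13 and 0.75), *1300017J02Rik* (0.16 and 0.72) and *Pcp4* (0.17 and 0.73). None was called. With 236 genes within a distance of 0.2, likeness over 2 values singles out few genes.

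**Figure D4:**
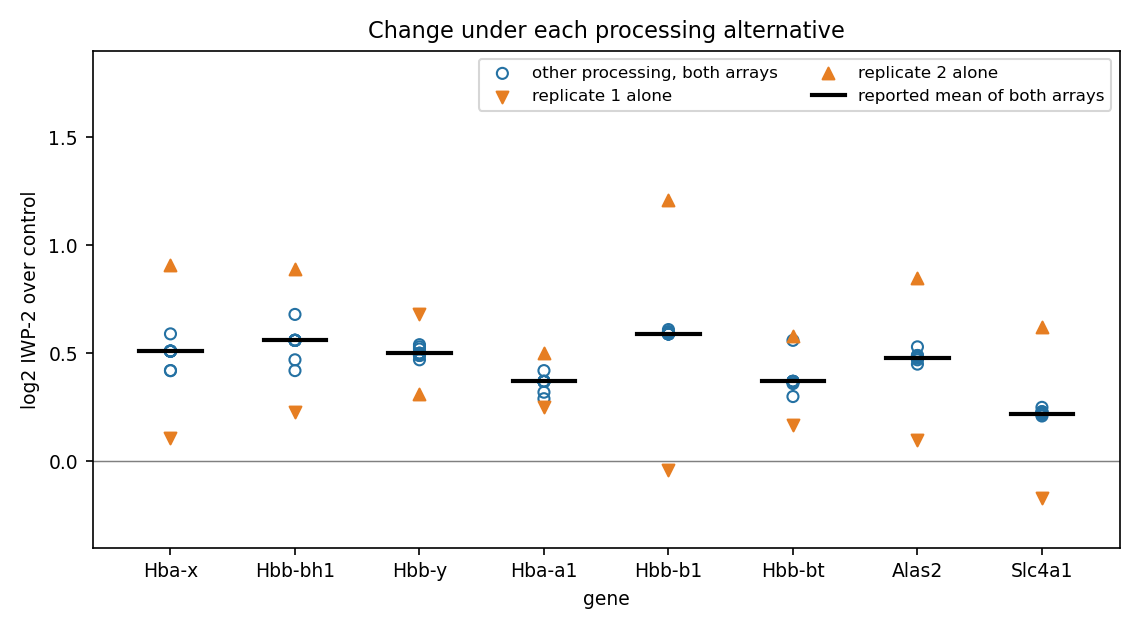
Mean log2 ratio of IWP-2 over control for each red cell gene as reported (black bar), under the other processing alternatives with both arrays (open circles) and with 1 array alone (triangles). For 8 of 8 genes 1 array alone moves the value further than any other choice, and *Hbb-b1* and *Slc4a1* cross 0 on replicate 1 alone.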

How the data were processed

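RNA of IWP-2-treated and control ureter pools was hybridised to 2 two-colour Agilent arrays of the same slide and scan. In the deposited scanner output the authors give raw intensity values for spots and local background and a software-processed intensity (Feature Extraction 12.2.0.7 in the headers, 10.7.3.1 in the submitters' processing notes). The deposited series matrix holds another unit, fold changes of treated against control that carry a sign, and served only as an alternative.

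The packages limma 3.58.1 and data.table (version 1.17.8) were used in R 4.3.3. Spot intensities were background-corrected by normexp (offset 50) and normalized by loess within each array, outlier spots were dropped, and spots were averaged over the 4 copies of each probe. Probes entered if over 0.5 of their spots were well above background in the treated pools or in the control pools on both arrays, and the brightest kept probe stood for a gene. Log2 ratios of treated over control were tested with lmFit and eBayes, two-sided, the swapped array's sign being turned, and Benjamini-Hochberg adjustment over 20119 genes; 2 arrays leave 1 residual degree of freedom, which limits the precision. Pools are separate. The p-values rest on the spread between pools and arrays after eBayes moved it toward a spread shared over all genes. They therefore do not measure the spread of 1 gene alone: *Hbb-b1*, with an SD of 0.89, had a standard error of 0.26. Levels are intensities after loess and quantile normalization of brightness between arrays (Aquantile). Levels of different probes were ranked by brightness and summed over marker lists only as a description, and a ratio between pools of different dye can hold dye bias. The fit was also run on simulated data, in which the planted changes were larger than the mean ratios of all members. That run therefore does not bear on changes of the members' size.

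Members and lists were chosen with earlier results of these data known. The text names every member, the called and the 3 most changed genes of each list, *Axin2* and *Nkd1*, and the 5 nearest genes. Genes named for their replicate gap, and *Mb* and *Hemgn*, were chosen after their values were seen. Some genes of the lists are not reported here. Promoters were read from RefSeq (GRCm38.p6) and searched over 250 bases. Alternatives changed the background correction, normalization, filter, probe rule, variance prior and arrays.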

Additional observations from a re-analysis of the deposited data

How the results depend on the processing

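With both arrays, each member kept a mean log2 ratio above 0 under 10 alternatives of processing, between 0.21 and 0.68. No member was called in any of them except with the mean over all kept probes of a gene, where 1 was, *Hbb-y* (0.53, adjusted p = 0.0427 in limma). Over all 20119 genes that fit called 224 higher and 278 lower, compared with 123 and 232 in the main fit. The smallest adjusted p of a member ranged from 0.0427 to 0.497 over the fits. On replicate 1 alone the sign turned for *Hbb-b1* (-0.04, and 1.21 on replicate 2) and *Slc4a1* (-0.17, and 0.62 on replicate 2). With 1 array left out, the members' median ranged from 0.14 to 0.73 and embryonic minus adult-type from -0.02 to 0.16. With both arrays the median lay between 0.42 and 0.52 and the globin difference between 0.02 and 0.10. The other *Hbb-y* probe, the omission of the brightest globins, the trend prior alone and the comparison of raw signals were chosen after seeing the data.

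Over all genes, limma called 123 higher and 232 lower. It called 0 and 0 with processed intensities (1356 and 1108 at an unadjusted p of 0.05), 7 and 36 with centring on the median, 21 and 98 without the filter on dim probes and 1038 and 1322 in the series table. The cause was not tested. The separate-channel model with a dye term could not be fitted: with 2 arrays, 0 residual degrees of freedom remained for the log ratio. The main fit was already paired by array, because each array holds its treated and its control pool and the ratio within the array is that pairing.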
